A study of Mus musculus with 4 samples.

Results

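Acrosome and gamete fusion genes were followed in testicular RNA of *Nef-sp* knockout mice. The group holds 10 genes, *Acr*, *Acrbp*, *Acrv1*, *Zpbp*, *Zpbp2*, *Spaca1*, *Spaca3*, *Izumo1*, *Spam1* and *Spesp1*, which were chosen by name. All 10 were found among the 12415 features that the table lists as gene exon sense, that is, reads in annotated exons on the strand of the gene. Total RNA of adult testis at postnatal day 60 was sequenced on a C57Bl/6J background, with 2 libraries of *Nef-sp*-/- mice and 2 libraries of *Nef-sp*+/- mice as controls. The knockout allele, a 23 bp out-of-frame deletion made with Cas9 nickase, descends from founder females bred to C57Bl/6J Rj males of wild type. The control mice carry it on 1 chromosome. Wild-type testes were not analysed here. The labels do not state that replicates came from separate animals, so that p-values measure only the spread between these libraries.

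The acrosome is a vesicle derived from the Golgi that spreads over the nucleus of the round spermatid and holds the enzymes and binding proteins used at fertilization. Its content is released by exocytosis near the egg coat, the zona pellucida, and the membrane that remains over the equatorial segment of the sperm head is where fusion with the egg begins. Most genes for these proteins are transcribed in late spermatocytes and spermatids and are found in few other tissues. *Nef-sp* encodes an exoribonuclease whose transcript the study detected in testis alone among the mouse tissues examined. In the mutant the deletion shifts the reading frame of the gene.

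The libraries held between 20659865 and 34442517 reads in the 10 annotation categories, of which 76.5% to 77.4% were gene exon sense reads. The *Nef-sp* gene itself had exon sense levels of 98.9 and 90.9 CPM in the *Nef-sp*+/- libraries compared with 21.8 and 26.7 CPM in the *Nef-sp*-/- libraries. CPM are read counts brought to a common library size, here the exon sense total of each library after scaling by the trimmed mean of M-values (TMM). *Nef-sp* was the only 1 of 10728 features tested with an adjusted p below 0.05 in edgeR's quasi-likelihood test (adjusted p = 4.1e-06 with Benjamini-Hochberg adjustment), which sets the share of called features at 0.00932%.

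The testis is a mixture of cells, and in RNA of the whole organ fewer cells of a type and less RNA per cell cannot be told apart. The spermatid markers *Prm1*, *Prm2*, *Tnp1*, *Tnp2*, *Odf1* and *Smcp*, which encode protamines, transition proteins and proteins of the tail, were all measured, and their summed level was 18376 and 22864 CPM in *Nef-sp*+/- against 23181 and 22456 CPM in *Nef-sp*-/-. *Nef-sp*+/- replicate 1 therefore stood at 84.6% of the mean of the 4 libraries, while the others stood at 103% to 107%. The spermatocyte markers *Sycp1*, *Sycp3*, *Spo11*, *Dmc1*, *Hspa2* and *Hist1h1t* summed to 3565 and 3457 CPM in *Nef-sp*+/- against 3383 and 3270 CPM in *Nef-sp*-/-. The part of these differences in the values below was not tested, and for several results below values without *Nef-sp*+/- replicate 1 are given.

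The acrosome and fusion genes were abundant in both genotypes. They took 0.261% (Wilson 95% interval 0.259 to 0.264) and 0.245% (0.243 to 0.247) of the exon sense reads in the *Nef-sp*+/- libraries compared with 0.241% (0.239 to 0.244) and 0.246% (0.244 to 0.249) in the *Nef-sp*-/- libraries, where the intervals cover counting error only. Summed over the genes, the level was 2554 and 2465 CPM in *Nef-sp*+/- against 2444 and 2475 CPM in *Nef-sp*-/-, so that the libraries of both genotypes overlapped. Unlike the spermatid markers, the sum was highest in *Nef-sp*+/- replicate 1.

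To compare levels between the genes, CPM were divided by the length of the annotated exons in kb. *Zpbp2* had the highest level, with a mean over the 4 libraries of 230.3 CPM per kb, and was followed by *Acrv1* with 216 and *Spesp1* with 182 CPM per kb. *Spaca3* and *Spaca1* came next with 129.8 and 125.3 CPM per kb, then *Acr* with 108.4 and *Acrbp* with 108.0 CPM per kb. The lowest levels were those of *Spam1* with 64.8, *Zpbp* with 58.8 and *Izumo1* with 29.9 CPM per kb. The values of the 4 libraries overlapped between neighbors for *Zpbp2* and *Acrv1*, for *Spaca3* and *Spaca1*, and for *Acr* and *Acrbp*, whereas the other neighbors in this order were separate. Among the 11504 features with a length in the annotation, the genes ranked from 282 for *Zpbp2* to 2215 for *Izumo1*. The order depends on the lengths. With the longest annotated transcript in place of all exons, *Acrbp* had 188 CPM per kb and took the third place, and *Spaca1* (167 CPM per kb) moved ahead of *Spaca3*. *Izumo1* then had 38.4 CPM per kb and stayed last. Its coding transcripts hold only 1444 different stretches of 50 bases against 2992 bases of annotated exon, so a length from these transcripts alone would raise its level. The gene also overlaps *Rasip1* by 1336 bases on the same strand.

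**Figure D1:**
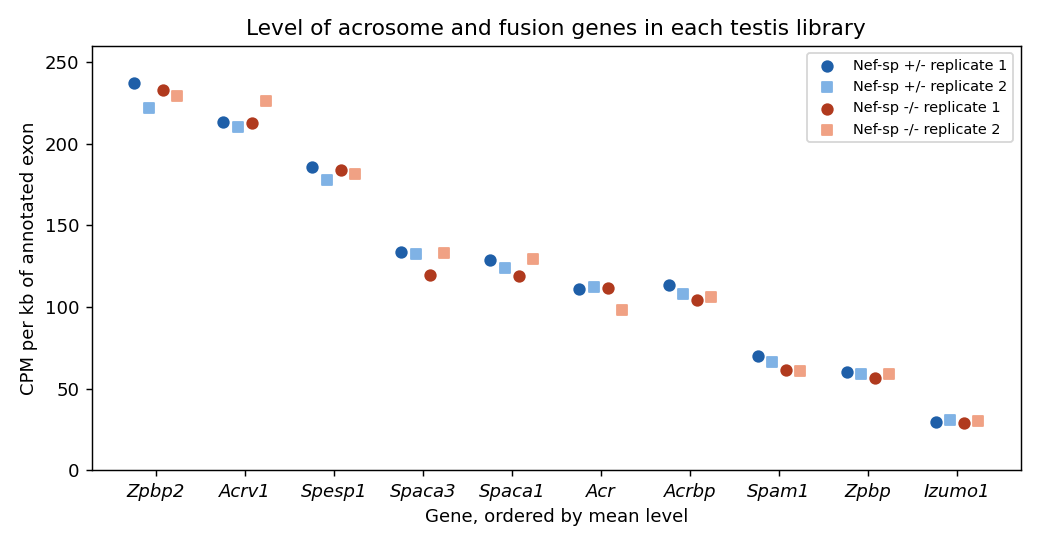
Level of each gene in CPM per kb of annotated exon (linear axis from 0) for the 2 *Nef-sp*+/- libraries in blue and the 2 *Nef-sp*-/- libraries in red, with 1 point per library. The genes are ordered by their mean over the 4 libraries, from *Zpbp2* (230.3) to *Izumo1* (29.9), and the libraries of a gene lie closer together than most neighboring genes do.

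Promoter windows were available from RefSeq (GRCm38.p6) for 9 of the genes, all but *Acr*, and run from 250 bases before to 50 bases after the annotated start. They were searched on both strands for the letters TGACG, the core of the cAMP response element (CRE) that CREM, a transcription factor of spermatids, is known to bind. These letters were found in the windows of 6 of 9 genes, *Acrbp*, *Izumo1*, *Spaca1*, *Spaca3*, *Spesp1* and *Zpbp2*, and in 20.8% of all 32851 windows of the same length. The complete palindrome TGACGTCA, which contains the core on both strands, was found for *Izumo1* alone, and in 1.79% of all windows. The GC box GGGCGG was found for 5 of 9 genes against 35.7% of all windows, and TATAAA for 0 of 9 against 13.6%. A gene was counted when any of its windows held the letters, and *Spaca1* and *Spaca3* have more than a single window. The shares of all windows are over single windows, so the counts and shares are not of the same unit. A match is a description of the letters and not a shown binding site. The windows of *Izumo1*, which holds the palindrome, and of *Spaca1*, which holds the core 2 times, are shown with the core in capitals. The *Izumo1* window is chr7:45621561-45621860 on the plus strand and the *Spaca1* window is chr4:34050016-34050315 on the minus strand.
Izumo1: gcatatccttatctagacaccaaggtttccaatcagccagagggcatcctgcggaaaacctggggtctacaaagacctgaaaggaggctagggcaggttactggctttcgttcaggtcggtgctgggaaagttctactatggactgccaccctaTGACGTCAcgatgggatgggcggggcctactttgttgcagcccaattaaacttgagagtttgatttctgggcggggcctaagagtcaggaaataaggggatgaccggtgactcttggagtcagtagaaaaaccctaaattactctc
Spaca1: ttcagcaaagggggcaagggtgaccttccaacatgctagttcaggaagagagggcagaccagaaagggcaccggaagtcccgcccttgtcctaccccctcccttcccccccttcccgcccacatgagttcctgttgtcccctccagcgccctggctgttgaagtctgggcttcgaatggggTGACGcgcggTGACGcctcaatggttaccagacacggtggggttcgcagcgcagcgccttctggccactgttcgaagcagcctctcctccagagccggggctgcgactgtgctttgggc

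*Acr*, *Acrbp* and *Spam1* encode the protease acrosin, the protein that binds its precursor in the acrosomal granule, and the hyaluronidase PH-20 that opens the matrix around the egg. *Acr* (ENSMUSG00000022622.3) lies on chromosome 15 of mm9 from 89398757 to 89405015 and has 5 exons. Its level was 167 and 169 CPM in the *Nef-sp*+/- libraries compared with 167 and 148.0 CPM in the *Nef-sp*-/- libraries. *Nef-sp*-/- replicate 2 was thus the low library, and the genotypes overlapped. The difference of -6.23% of *Nef-sp*-/- from *Nef-sp*+/- (95% confidence interval -15.5% to 4.12%) had an adjusted p of 0.954 in edgeR. Its log2 fold change of -0.09 was -0.003 without *Nef-sp*-/- replicate 2 and -0.18 without *Nef-sp*-/- replicate 1. *Acrbp* (ENSMUSG00000072770.3), on chromosome 6 from 124999707 to 125013285, had 373 and 353 CPM in *Nef-sp*+/- against 342 and 348 CPM in *Nef-sp*-/-. Both *Nef-sp*-/- libraries were below both *Nef-sp*+/- libraries, by -4.98% (-13.2% to 4.02%, adjusted p = 0.954 in edgeR).

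*Spam1* (ENSMUSG00000029682.2) lies on the same chromosome from 24745824 to 24751048. Its level was 141 and 134 CPM in the *Nef-sp*+/- libraries compared with 124.0 and 123 CPM in the *Nef-sp*-/- libraries, based on 2289, 3536, 2000 and 1929 reads. Both *Nef-sp*-/- libraries were lower, and the interval of the difference, -10.3% (-18.2% to -1.65%), did not include 0. *Spam1* alone of the group had an unadjusted p below 0.05 in edgeR's quasi-likelihood test, which 4.8% of all features tested also had. Its p adjusted over all features was 0.954 in edgeR, above the threshold, and in DESeq2 none of the genes had an unadjusted p below 0.05. The unadjusted p of *Spam1* in edgeR was 0.0501 with a block for the replicate number, and 0.016 to 0.027 with other scalings and filters. Without *Nef-sp*+/- replicate 1 the log2 fold change of *Spam1* was -0.12, against -0.16 with all libraries. The other hyaluronidase genes *Hyal5* and *Hyal6*, named after their values were seen, had levels of 205 and 216 CPM, and of 234 and 215 CPM, in the *Nef-sp*+/- libraries. In the *Nef-sp*-/- libraries these were 204 and 221 CPM for *Hyal5* and 224 and 221 CPM for *Hyal6*, so that both genes overlapped between genotypes. Of the 1964 windows of 50 bases, the length of the reads, in the annotated *Spam1* transcript, none occurs in a coding transcript of another gene.

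*Zpbp* and *Zpbp2* encode related proteins of the acrosomal matrix that bind the zona pellucida. *Zpbp* (ENSMUSG00000020193.3, chromosome 11 from 11179629 to 11362411) had 257 and 251 CPM in *Nef-sp*+/- against 241 and 250.7 CPM in *Nef-sp*-/-. The genotypes did not overlap, but the lower *Nef-sp*+/- library and the higher *Nef-sp*-/- library were nearly equal, and the difference was -3.21% (-11.5% to 5.80%, adjusted p = 0.956 in edgeR). *Zpbp2* (ENSMUSG00000017195.9, on the same chromosome from 98412411 to 98419979) had 399 and 373 CPM in *Nef-sp*+/- against 392 and 386 CPM in *Nef-sp*-/-. The *Nef-sp*-/- libraries lay between the *Nef-sp*+/- libraries, with a difference of 0.728% (-8.19% to 10.5%, adjusted p = 0.990 in edgeR). There were 1.56 and 1.49 *Zpbp2* reads per *Zpbp* read in *Nef-sp*+/- against 1.63 and 1.54 in *Nef-sp*-/-. No window of 50 bases of either gene occurs in coding transcripts of the other or of further genes.

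*Acrv1*, *Spaca1* and *Spaca3* encode an acrosomal vesicle protein (SP-10), a membrane protein needed for the shape of the acrosome, and a lysozyme-like protein of the acrosome. *Acrv1* (ENSMUSG00000032110.3, chromosome 9 from 36500805 to 36506422) had 234 and 230.5 CPM in *Nef-sp*+/- against 233 and 248 CPM in *Nef-sp*-/-. *Nef-sp*-/- replicate 2 was the high library, and the genotypes overlapped, with a difference of 3.54% (-5.51% to 13.4%, adjusted p = 0.956 in edgeR). *Spaca1* (ENSMUSG00000028264.9, chromosome 4 from 34111849 to 34137166) had 206 and 198 CPM in *Nef-sp*+/- against 189.7 and 207 CPM in *Nef-sp*-/-, a difference of -1.76% (-10.8% to 8.23%, adjusted p = 0.985 in edgeR). *Spaca3* (ENSMUSG00000053184.8, chromosome 11 from 80671867 to 80681316) had 128 and 127 CPM in *Nef-sp*+/- against 115 and 128 CPM in *Nef-sp*-/-, a difference of -5.03% (-14.1% to 5.03%, adjusted p = 0.956 in edgeR). For both *Spaca* genes *Nef-sp*-/- replicate 1 was the low library and the genotypes overlapped. The log2 fold change of *Spaca3*, -0.07, was -0.002 without this library and -0.15 without *Nef-sp*-/- replicate 2.

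*Izumo1* encodes the immunoglobulin-like protein of the sperm that binds its partner on the egg membrane before fusion, and *Spesp1* a protein of the equatorial segment. *Izumo1* (ENSMUSG00000064158.4, chromosome 7 from 52877181 to 52884193) had 88.7 and 92.7 CPM in *Nef-sp*+/- against 86.4 and 90.1 CPM in *Nef-sp*-/-. The genotypes overlapped, with a difference of -2.76% (-11.6% to 6.96%, adjusted p = 0.960 in edgeR). *Spesp1* (ENSMUSG00000046846.3, chromosome 9 from 62118536 to 62129986) had the most reads of the group, between 21.7% and 22.7% of its reads in each library. Its level was 561 and 536 CPM in *Nef-sp*+/- against 554 and 548 CPM in *Nef-sp*-/-, and the *Nef-sp*-/- libraries lay between the *Nef-sp*+/- libraries. The difference was 0.458% (-8.16% to 9.88%, adjusted p = 0.993 in edgeR).

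Together, 0 of 10 genes passed the threshold in edgeR's quasi-likelihood test or in DESeq2, and all 10 had passed the expression filter. The median log2 fold change between genotypes, with positive values where *Nef-sp*-/- was higher, was -0.04, that is, -2.99%, against a median of 0.00 over all features tested. It was -0.03 without *Nef-sp*+/- replicate 1, -0.06 without *Nef-sp*+/- replicate 2, -0.006 without *Nef-sp*-/- replicate 1 and -0.07 without *Nef-sp*-/- replicate 2. Values were below 0 for 7 genes and above 0 for 3, where 50.1% of all features were below 0. The 3 genes without overlap between genotypes, *Acrbp*, *Spam1* and *Zpbp*, were all lower in *Nef-sp*-/-, and so were 18.1% of all features, with 34.5% not overlapping in either direction. The 95% confidence intervals, which are not adjusted for the number of genes, reached from -18.2% for *Spam1* to 13.4% for *Acrv1*. Counting alone gives the log2 fold changes a standard error of 0.0146 to 0.0363, while the fitted standard errors were 0.0582 to 0.0684. The fitted errors also hold a spread between libraries, which edgeR estimates with all features together and not from each gene alone. Counting error was below the fitted error for every gene and was largest for *Izumo1*, 0.0363 against a fitted 0.0623.

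**Figure D2:**
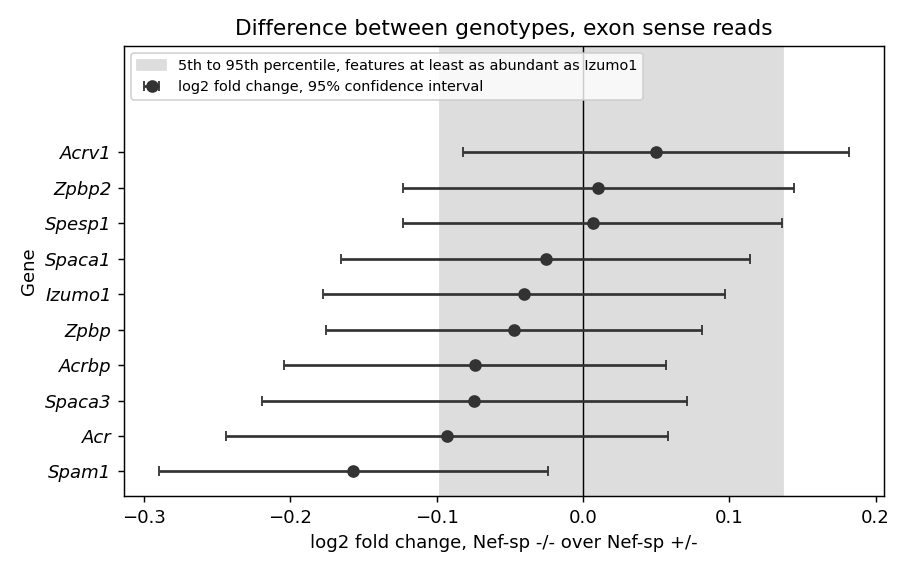
Log2 fold change of exon sense reads, *Nef-sp*-/- over *Nef-sp*+/-, for each gene with its 95% confidence interval from edgeR's quasi-likelihood fit. The gray band spans the 5th to 95th percentile (-0.10 to 0.14) of the 2572 features with a mean level of at least that of *Izumo1*, and all intervals but that of *Spam1* include 0.

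Sense reads were also counted in introns, which neither the choice of the genes nor their exon counts used. For *Acrbp* the introns held a large part of the sense reads. There were 1856 and 2927 intron sense reads in the *Nef-sp*+/- libraries compared with 1722 and 1758 in the *Nef-sp*-/- libraries. They made up 23.5% (Wilson 95% interval 22.6% to 24.5%) and 23.8% (23.1% to 24.6%) of the intron and exon sense reads in *Nef-sp*+/- against 23.8% (22.8% to 24.8%) and 24.3% (23.3% to 25.3%) in *Nef-sp*-/-. The share was nearly the same in the 4 libraries. It ranked 136 among the 6663 features with at least 1000 exon sense reads, whose median was 0.490% and whose 90th percentile was 7.01%. Per kb, intron reads of *Acrbp* reached 9.97% of the density of its exon reads, where the median over the 6222 of these features with annotated lengths was 0.0745%.

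*Acrbp* is known to give rise to a spliced form and to a shorter form that ends within the intron after exon 5. Both are in the GENCODE annotation of mm9. A spliced transcript has 10 exons, and exon 5 ends at base 125003970 of chromosome 6. In another transcript, of 5 exons, the same exon runs on for 242 bases into the intron of 720 bases, up to base 125004212, and a stop codon follows after 13 intron bases. The junction is shown because it is an annotated place where *Acrbp* RNA extends into intron sequence. It comprises the last 30 bases of exon 5 and the intron bases up to the stop codon, chr6:125003941-125003986 of mm9 on the plus strand, with the GT of the donor site and the TGA of the stop codon in capitals.
Acrbp: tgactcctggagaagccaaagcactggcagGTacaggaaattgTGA
The counts do not tell in which intron the reads lay, nor which transcripts the study's annotation held. *Acrbp* also overlaps *Ing4* on the same strand, and 33.8% of the 2615 windows of 50 bases in its coding transcripts are shared with that gene, whose own exon sense level was between 4.65 and 5.84 CPM.

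For the other genes intron reads were fewer. Their share of sense reads over the 4 libraries was 4.57% for *Izumo1*, 4.13% for *Acrv1* and 3.45% for *Acr*. It was between 0.102% and 0.704% for *Spaca3*, *Zpbp2*, *Spam1*, *Spaca1* and *Zpbp*, and intron reads of *Spesp1* were not analysed here. In edgeR's quasi-likelihood test of the 3403 intron sense features, 8 of the genes were tested and 0 were called, against a share of called features of 0.0294%. None of the 8 had an unadjusted p below 0.05, which 2.35% of the intron sense features had. The log2 fold change of *Acrbp* intron reads was -0.09 (95% confidence interval -0.36 to 0.19, adjusted p = 0.9996 in edgeR), close to that of its exon reads of -0.07.

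**Figure D3:**
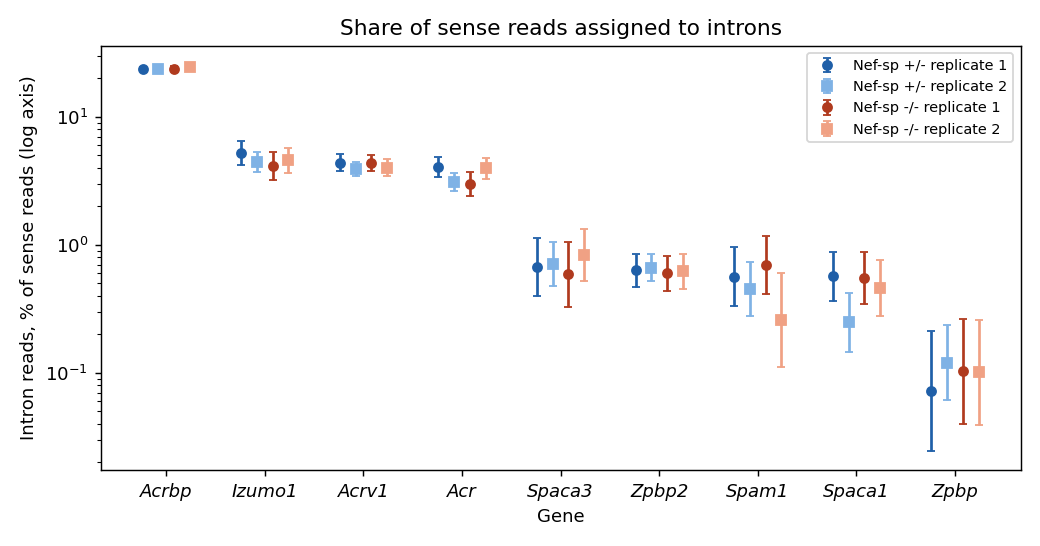
Intron reads as a percentage of intron plus exon sense reads for 9 of the genes (log axis), with 1 point per library and Wilson 95% intervals that cover counting error only. *Acrbp* lies at 23.5% to 24.3% in the 4 libraries, above *Izumo1*, *Acrv1* and *Acr* at 2.98% to 5.22% and the remaining genes below 1%.

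Antisense reads were few beside the sense reads. *Spaca1* had 2 and 9 exon antisense reads in *Nef-sp*+/- against 3 and 2 in *Nef-sp*-/-, and these were not tested. *Acrbp* had 81 and 114 exon antisense reads in the *Nef-sp*+/- libraries compared with 62 and 65 in the *Nef-sp*-/- libraries. These were 1.11% to 1.33% of its sense and antisense exon reads. Among the 6663 features with at least 1000 exon sense reads, the median was 0 exon antisense reads per 100 exon sense reads. Features without listed antisense reads counted as 0. The antisense reads of *Acrbp* ranked 426 among these features, at 1.22 per 100. Their log2 fold change was -0.19 (95% confidence interval -0.60 to 0.21, adjusted p = 0.996 over 1008 exon antisense features in edgeR), where 0 of these features were called (0%) and 2.98% had an unadjusted p below 0.05, *Acrbp* not among them. *Zpbp*, which is overlapped on the opposite strand by the protein-coding gene 4930415F15Rik (315 bp) and by the pseudogenes *Gm12598* and *Gm12599*, had 51 and 84 intron antisense reads in *Nef-sp*+/- against 45 and 53 in *Nef-sp*-/-. The log2 fold change was -0.06 (adjusted p = 0.990 over 1421 intron antisense features in edgeR, of which 0 were called (0%) and 4.5% had an unadjusted p below 0.05, *Zpbp* not among them).

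Other genes of the same pathway were taken from 4 lists of acrosome formation, enzymes of the sperm head, egg binding and fusion, and exocytosis with egg activation. Of their 66 genes 51 were measured, 48 passed the expression filter and 0 were called in edgeR's quasi-likelihood test, while 2 had an unadjusted p below 0.05, *Cylc1* and *Prss39*, against 4.8% of all features. The genotypes did not overlap for 21 of the 48, 17 of them higher in *Nef-sp*-/-, against 34.5% of all features in either direction and 16.4% in this direction. *Nef-sp*+/- replicate 1, the library with the low sum of spermatid markers, was the lowest of the 4 libraries in the sum of each of these lists. Its sum was between 91.8% and 98.0% of the mean of the libraries, and its part in the differences was not tested. Without this library the median log2 fold change of the 48 genes was 0.01 in place of 0.03, with 27 in place of 29 above 0. Without *Nef-sp*+/- replicate 2, which leaves this library as the control, the median was 0.04, with 33 above 0.

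In acrosome formation, 9 of 19 genes tested were above 0 and 10 below, with a median log2 fold change of -0.01. The most abundant per kb were *Crisp2*, a cysteine-rich secretory protein of the acrosome and tail, *Dkkl1*, an acrosomal protein, and *Actl7b*, an actin-like protein of spermatids. *Crisp2* had 2840 and 3315 CPM in *Nef-sp*+/- against 3331 and 3367 CPM in *Nef-sp*-/- (log2 fold change 0.12, adjusted p = 0.954 in edgeR). *Nef-sp*+/- replicate 1 was low and the other 3 libraries were alike, and without it the log2 fold change was 0.02. *Dkkl1* had 840.1 and 840.7 CPM in *Nef-sp*+/- against 859 and 834 CPM in *Nef-sp*-/-, and *Actl7b* had 922 and 956 CPM in *Nef-sp*+/- against 889.9 and 897 CPM in *Nef-sp*-/-. The extremes of the list were *Cylc1*, which encodes the head protein cylicin, with a log2 fold change of 0.16 (95% confidence interval 0.01 to 0.30), and *Spaca5* with -0.12 (-0.40 to 0.17).

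Among the proteases and hyaluronidases of the sperm head, 7 of 9 genes were above 0, with a median log2 fold change of 0.04. The serine protease genes *Prss39*, *Prss37* and *Prss55* were the most abundant per kb. *Prss39* had 405 and 432 CPM in *Nef-sp*+/- against 464 and 456 CPM in *Nef-sp*-/-, with a log2 fold change of 0.14 (95% confidence interval 0.002 to 0.27, adjusted p = 0.954 in edgeR). *Prss37* had 258 and 295 CPM in *Nef-sp*+/- against 314 and 297 CPM in *Nef-sp*-/-, and *Prss55* had 148.0 and 155 CPM in *Nef-sp*+/- against 160.1 and 164 CPM in *Nef-sp*-/-. For these genes the *Nef-sp*-/- libraries were the highest, without overlap, and *Nef-sp*+/- replicate 1 was the lowest. Without this library the log2 fold changes of *Prss39*, *Prss37* and *Prss55* were 0.09, 0.05 and 0.07, in place of 0.14, 0.14 and 0.10. The lowest log2 fold change was that of *Pcsk4*, a proprotein convertase of spermatids, with -0.05.

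Among the other genes of egg binding and fusion, 10 of 17 were measured and tested, 7 of them above 0, with a median log2 fold change of 0.05. *Llcfc1*, which encodes a sperm protein needed for fusion, had 396 and 419.9 CPM in *Nef-sp*+/- against 426 and 424 CPM in *Nef-sp*-/-. *Adam3*, a sperm surface protein used in binding to the zona, had 1507 and 1509 CPM in *Nef-sp*+/- against 1601 and 1561 CPM in *Nef-sp*-/-, and *Adam2*, its partner on the sperm surface, had 594 and 578 CPM in *Nef-sp*+/- against 596 and 597 CPM in *Nef-sp*-/-. Their log2 fold changes were 0.06, 0.07 and 0.03. The lowest was *Dcst1*, needed after contact with the egg, with -0.06.

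In exocytosis and egg activation, 6 of 10 genes tested were above 0, with a median log2 fold change of 0.06. *Plcz1*, the phospholipase of the sperm that starts calcium oscillations in the egg, had 462 and 529 CPM in *Nef-sp*+/- against 554 and 543 CPM in *Nef-sp*-/- (log2 fold change 0.15, adjusted p = 0.954 in edgeR), and without *Nef-sp*+/- replicate 1 the log2 fold change was 0.05. *Plcd4* and *Napa*, a phospholipase of the acrosome reaction and an adaptor of membrane fusion, had log2 fold changes of 0.07 and -0.03. *Nsf*, the ATPase that takes fusion complexes apart, had only 82 to 180 reads per library and the lowest value of the list, -0.28 (95% confidence interval -0.60 to 0.04).

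**Figure D4:**
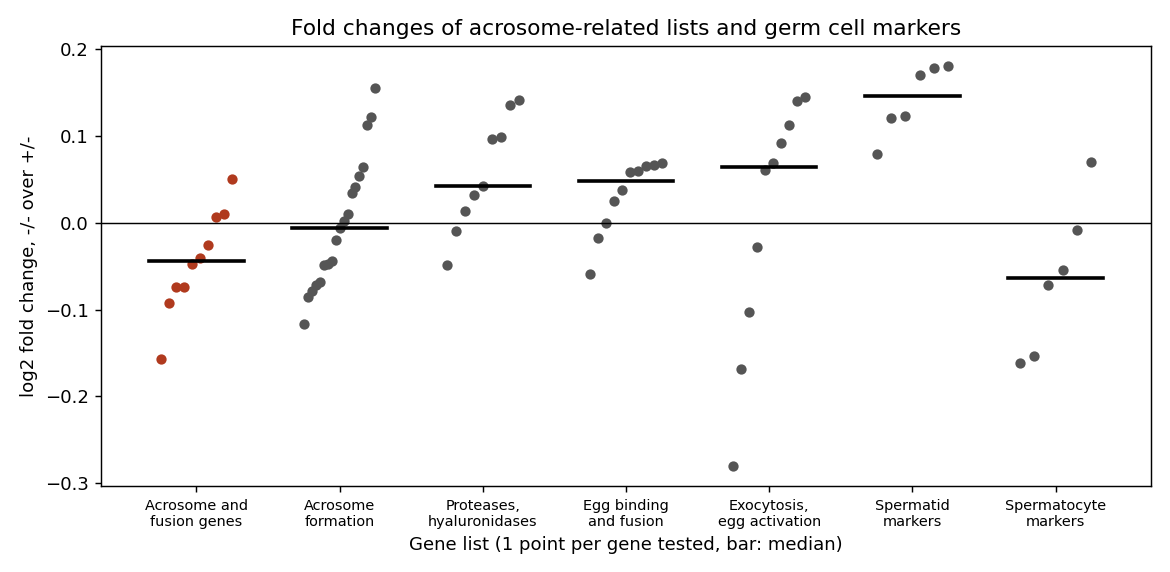
Log2 fold change, *Nef-sp*-/- over *Nef-sp*+/-, of each gene tested (points) and the median (bar) for the 10 acrosome and fusion genes in red and, in gray, 4 lists of the same pathway and the spermatid and spermatocyte markers. Medians run from -0.06 for the spermatocyte markers and -0.04 for the acrosome and fusion genes to 0.15 for the spermatid markers, and no gene shown passed the threshold.

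Markers of the cell types of the testis were summed in the same way. The 6 spermatid markers tested were all above 0, with a median log2 fold change of 0.15, but without *Nef-sp*+/- replicate 1 the median was -0.001 and 3 of 6 were above 0. In the fit of all libraries 5 of 6 spermatocyte markers were below 0, with a median of -0.06. Spermatogonia markers summed to 60.7 and 67.2 CPM in *Nef-sp*+/- against 65.8 and 69.5 CPM in *Nef-sp*-/-. Sertoli cell markers summed to 1048 and 1042 CPM in *Nef-sp*+/- against 1016 and 1079.6 CPM in *Nef-sp*-/-, and peritubular myoid markers to 70.1 and 68.0 CPM in *Nef-sp*+/- against 59.8 and 66.0 CPM in *Nef-sp*-/-. Of the markers tested, 4 of 5 Sertoli cell and 3 of 3 myoid markers were below 0, with medians of -0.07 and -0.07. Of the spermatogonia markers 3 of 4 were above 0, with a median of 0.05. In fits without 1 library these medians ran from -0.12 to 0.04, from -0.22 to -0.0002 and from -0.15 to 0.14, in that order. Leydig cell markers summed to 952 and 969 CPM in *Nef-sp*+/- against 907 and 763 CPM in *Nef-sp*-/-, and the median log2 fold change of the 5 markers was 0.01. *Cyp17a1* and *Cyp11a1* had log2 fold changes of -0.27 and -0.35 and unadjusted p-values below 0.05 in edgeR. For *Cyp17a1* the value was -0.24 without *Nef-sp*+/- replicate 1 and -0.30 without *Nef-sp*+/- replicate 2. It was -0.39 without *Nef-sp*-/- replicate 1 and -0.16 without *Nef-sp*-/- replicate 2. For *Cyp11a1* the same fits gave -0.29, -0.40, -0.48 and -0.22, in that order. With all libraries, *Star*, *Insl3* and *Hsd3b6* had log2 fold changes of 0.08, 0.18 and 0.01. Macrophage markers summed to at most 5.10 CPM and epididymal markers to at most 3.29 CPM. None of the 32 markers tested was called in edgeR's quasi-likelihood test, and 4 of them had an unadjusted p below 0.05, against 4.8% of all features. These were the 2 Leydig cell genes, 1 spermatocyte marker and 1 spermatid marker.

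**Figure D5:**
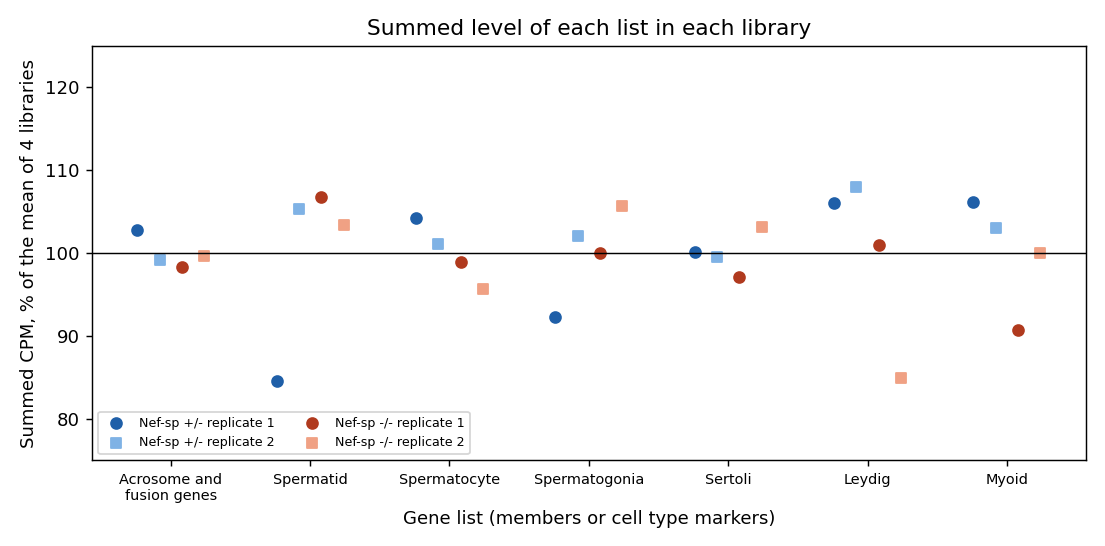
Summed CPM of each list in each library as a percentage of the mean of the 4 libraries (the axis does not start at 0), for the acrosome and fusion genes and for markers of 6 cell types. The acrosome and fusion genes stay within 98.4% to 103% in every library, while the spermatid markers are at 84.6% in *Nef-sp*+/- replicate 1 and the Leydig cell markers at 85.0% in *Nef-sp*-/- replicate 2.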

How the data were processed

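Total testicular RNA was depleted of ribosomal RNA, made into strand-specific libraries and sequenced for 50 cycles. After adapter removal the authors aligned reads to mm9 by means of their own software, allowing no mismatch, and deposited counts without normalization for each feature, annotation category and strand. Software versions and how reads with more than 1 match were counted are not given in the sources used here, and every listed feature had at least 5 reads over the 4 libraries. The table also holds the authors' own DESeq2 comparison (mean signal, log2 fold change and p-values), which was not used.

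Libraries were matched to genotypes by the codes in the labels. Counts of all gene exon sense features were tested with edgeR 4.0.16 in R 4.3.3 (expression filter with a minimum count of 10, TMM, quasi-likelihood test without covariates), and p-values were adjusted by the Benjamini-Hochberg method over all features tested, with a threshold of 0.05. Intron and antisense categories were fitted separately. DESeq2, the tool named by the study without a version, was run here in version 1.42.0 as an alternative. The test was also run on simulated counts drawn independently for each feature and library. No simulated library was low in a whole set of genes, as *Nef-sp*+/- replicate 1 was in the spermatid markers, so the test was not checked for that case. Confidence intervals (95%) of fold changes used the t distribution of the fit, and those of read shares were Wilson intervals. Lengths and positions were taken from GENCODE vM1 on mm9, and promoters from RefSeq on GRCm38.p6. List symbols were matched through RefSeq synonyms. Genes without a match were not analysed here.

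The members, lists and the rule for naming genes (the members, *Nef-sp*, and in each pathway list the 3 most abundant per kb, the extremes and any called gene) were chosen with earlier results of these data known. Alternatives were another scaling, other filters, DESeq2, a block for the replicate number, and fits without each library in turn.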

Additional observations from a re-analysis of the deposited data

How the results depend on the processing

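Of the 100 values of the 10 genes under 10 alternatives, 92 kept their direction and stayed above the threshold, 8 changed direction and 0 were called (smallest adjusted p = 0.252 in edgeR). With scaling to the total of all categories, *Zpbp2* and *Spesp1* had log2 fold changes of -0.014 and -0.018. Among fits leaving out a library, *Zpbp2* ran from -0.038 to 0.060, *Spesp1* from -0.025 to 0.040 and *Spaca1* from -0.085 to 0.035. *Acr* ran from -0.18 to -0.003 and *Spaca3* from -0.15 to -0.002. The median of the genes ran from -0.07 to -0.01 when a library was left out and from -0.07 to -0.04 otherwise. *Nef-sp* ran from -2.11 to -1.83 and from -1.99 to -1.96.

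Fits without 1 library changed how many genes of the other lists were called, from 0 to 12. There were 2 without *Nef-sp*+/- replicate 1 (*Cyp11a1* and *Cyp17a1*) and 12 without *Nef-sp*+/- replicate 2, among them *Crisp2*, *Prss37*, *Plcz1* and all 6 spermatid markers. The remaining *Nef-sp*+/- library is then assumed to vary like the *Nef-sp*-/- libraries. Each fit without 1 library tested 48 genes of the 4 pathway lists, 32 of the 8 marker lists and the egg gene *Cd9*. The fit of all libraries tested 10728 exon sense features. How many features the fits without 1 library tested is not given here, so the shares called in lists and features were not compared. Calls over all exon sense features were 1 in the report, 2 with DESeq2, 41 without *Nef-sp*+/- replicate 1 and 252 without *Nef-sp*+/- replicate 2.

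The replicate numbers are not said to mark shared litters or days. Across exon sense features, the deviations of libraries sharing a number were correlated at -0.09, and in the fit with a replicate block the median of the genes was -0.04, *Nef-sp* was -1.97, and 0 of the genes and 1 feature in all were called. With the numbers crossed, added after correlations of -0.15 and -0.11 were seen, the block called 2 intron sense and 0 intron antisense features, none of them an acrosome or fusion gene.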

Other observations

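Genes of the egg side of fertilization served as a contrast. Of *Zp1*, *Zp2*, *Zp3*, *Izumo1r*, *Cd9* and *Astl*, only *Cd9*, a membrane protein that the egg needs for fusion and that other cells also express, was measured. It had 21 and 43 reads in the *Nef-sp*+/- libraries compared with 21 and 22 reads in those of *Nef-sp*-/- mice, or 1.30 to 1.63 CPM, with a log2 fold change of -0.15 (95% confidence interval -0.74 to 0.44). The other 5 genes were not analysed here.

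Ratios between acrosome genes were taken within each library. There were 2.23 and 2.09 *Acrbp* exon reads per *Acr* read in the *Nef-sp*+/- libraries compared with 2.04 and 2.35 in those of *Nef-sp*-/- mice. There were 6.32 and 5.79 *Spesp1* reads per *Izumo1* read in *Nef-sp*+/- against 6.41 and 6.07 in *Nef-sp*-/-. There were 0.846 and 0.790 *Spam1* reads per *Acr* read in *Nef-sp*+/- against 0.740 and 0.828 in *Nef-sp*-/-. In these 3 ratios the genotypes overlapped.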
